A study of Mus musculus with 9 samples.

Results

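Alternative activation genes are genes that IL-4 and IL-13, the type 2 cytokines, are known to induce in macrophages and other myeloid cells. The 10 followed here were Arg1, Retnla, Chil3, Tgm2, Alox15, Ch25h, Matk, Myc, Il1rn and Ear2. They were found by symbol among the 55302 gene symbols of a count table of mouse thymic dendritic cells, and all 10 had a row. Of these, 9 had enough counts to enter the test of 15417 genes, and Ch25h did not.

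The libraries were 3 of CD301b cells, numbered 1, 3 and 4 in their titles, 3 of SIRPa cells and 3 of XCR1 cells, the last 2 sets numbered 1 to 3. All came from C57BL/6 mice 8 weeks of age, and no treatment is stated for any group. Thymi were digested with collagenase D and the cells stained and sorted, while the sources used here do not give the gates or cell numbers. CD301b is a lectin encoded by Mgl2, SIRPa a surface receptor found on type 2 conventional dendritic cells, and XCR1 the chemokine receptor that defines type 1 conventional dendritic cells. The labels name the source as thymocytes and the cell type as thymic dendritic cells, and the design text speaks of 3 mice without saying whether populations shared animals or animals were pooled, so a p-value reflects how far these libraries spread, which may be technical.

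IL-4 and IL-13 bind receptors that contain IL-4Rα, which activates the Janus kinases and the transcription factor STAT6. In mouse macrophages STAT6 then drives genes for arginine metabolism, secreted lectins and resistin-like proteins, lipid oxidation and inhibitors of inflammation. The cytokine genes themselves had too few counts to be tested: Il4 had 0 in the CD301b, 3 in the SIRPa and 0 in the XCR1 libraries, and Il13 had 0, 3 and 4 in the same order.

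Libraries held 20246092 to 25438864 counts. Levels are CPM, the count of a gene relative to the library's TMM-scaled total, and 3 counts in a library correspond to 0.119 to 0.1497 CPM. Markers set CD301b and XCR1 cells apart: Mgl2 averaged 624 CPM in CD301b cells, 23.2 CPM in SIRPa cells and 1.82 CPM in XCR1 cells. In the same order, the 8 markers of type 1 dendritic cells summed to 399 to 480, 565 to 655 and 3530 to 4190 CPM. Sirpa was high in both CD301b and SIRPa cells, at 646 and 774 CPM against 12.5 CPM in XCR1 cells. The 8 markers of type 2 dendritic cells summed to 2331 to 2705, 1736 to 1895 and 145 to 157 CPM, highest in CD301b cells. That list holds Mgl2 and Sirpa, genes of sorted proteins, so these sums are partly set by the sort. Between CD301b and SIRPa cells 4 of the 8 passed as higher (2.20% of all genes), 1 as lower (2.08%) and 3 did not pass. Clec12a ran opposite to the sum, at 21.0, 41.4 and 105 CPM in CD301b, SIRPa and XCR1 cells. General dendritic cell markers summed to at least 17347 CPM in every library, most of it from Cd74 and H2-Ab1 (means of 11480 and 5694 CPM in SIRPa cells). Of the same list, Flt3 averaged 326 CPM in CD301b, 252 CPM in SIRPa and 519 CPM in XCR1 cells. Zbtb46 averaged 147, 99.7 and 177 CPM in that order. XCR1 replicate 3 stood apart from its group in the 12 thymocyte and T cell markers, which summed to 720 CPM against 198 and 159 CPM in replicates 1 and 2, and in granulocyte markers given beside the members they touch. In these bulk libraries, fewer cells that express a gene and less RNA of it per cell cannot be told apart.

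The members did not move as 1 block. Between CD301b and SIRPa cells, 2 of the 9 tested members were higher in CD301b, Retnla and Ear2, against 2.20% of all genes tested. Tgm2 was lower in CD301b, against 2.08% of all genes. Against XCR1 cells, the same 6 members were higher in CD301b and in SIRPa cells: Arg1, Retnla, Tgm2, Matk, Il1rn and Ear2. These 6 of 9 stand beside 13.5% of all genes higher in CD301b than in XCR1, and 13.9% higher in SIRPa than in XCR1. No tested member passed as lower than in XCR1, where 9.12% of all genes were lower in CD301b and 10.7% lower in SIRPa by the same edgeR test. Both of these comparisons use the same XCR1 libraries, and Arg1 and Retnla entered the test through their counts in CD301b and SIRPa cells alone. Il1rn, with 0 counts in XCR1 replicate 1, and Ear2, with 7 in XCR1 replicate 2, also needed CD301b or SIRPa libraries to enter it. Myc, Alox15 and Chil3 passed in none of the 3 comparisons.

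**Figure D1:**
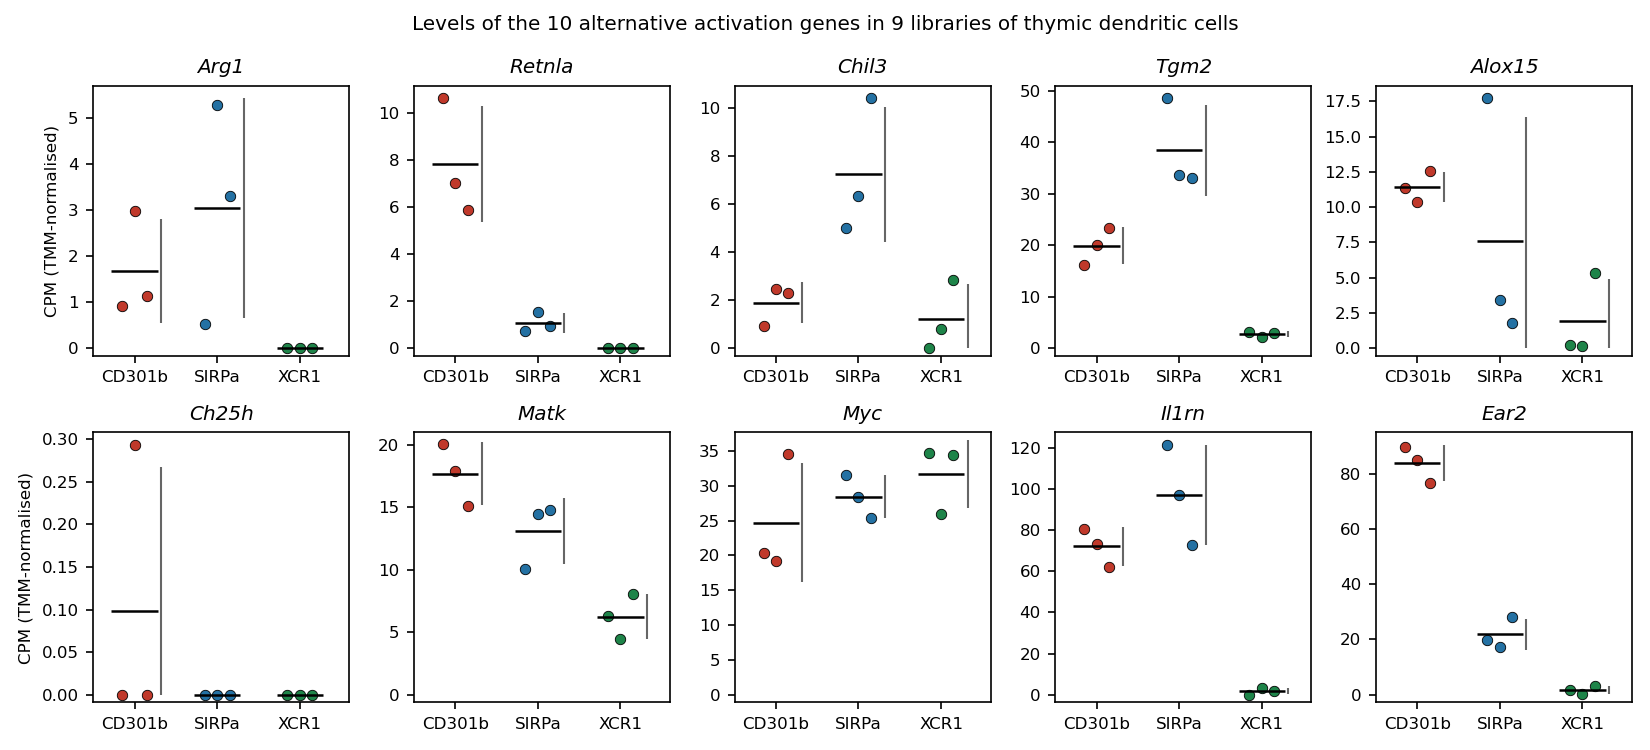
TMM-normalised CPM (y axis, linear, a scale of its own for each gene) of the 10 genes in CD301b, SIRPa and XCR1 libraries (x axis); each point is 1 library, horizontal lines are means and vertical lines ± 1 SD, cut at 0. Retnla and Ear2 stand highest in CD301b, Tgm2 and Chil3 in SIRPa, and Myc lies between 19.2 and 34.7 CPM in all libraries.

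Promoter sequence is shown for Retnla, Ear2, Il1rn and Chil3, members that encode secreted proteins, to show the STAT and C/EBP motifs near their start sites. RefSeq sequence (GRCm38.p6, 250 bases before to 50 after a start site) was matched to 6 of the 10 members, with 3 start sites for Il1rn, 2 for Matk and 1 each for Retnla, Chil3, Ear2 and Ch25h; Arg1, Tgm2, Alox15 and Myc are named only. Capitals mark matches, on either strand, to TTCNNNNGAA, the spacing that STAT6 prefers, to TTCNNNGAA, the spacing of other STAT proteins, or to TTGCNNAA, a core of C/EBP sites. For Il1rn the start site on this stretch is 1 of 3.
Retnla, chr16:48842359-48842658, plus strand: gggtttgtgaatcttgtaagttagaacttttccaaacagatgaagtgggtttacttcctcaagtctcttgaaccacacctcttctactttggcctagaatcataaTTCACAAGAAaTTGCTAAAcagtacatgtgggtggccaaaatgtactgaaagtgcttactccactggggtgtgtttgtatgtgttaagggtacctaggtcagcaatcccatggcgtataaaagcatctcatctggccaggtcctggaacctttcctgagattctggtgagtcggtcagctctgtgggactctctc
Ear2, chr14:44102404-44102703, plus strand: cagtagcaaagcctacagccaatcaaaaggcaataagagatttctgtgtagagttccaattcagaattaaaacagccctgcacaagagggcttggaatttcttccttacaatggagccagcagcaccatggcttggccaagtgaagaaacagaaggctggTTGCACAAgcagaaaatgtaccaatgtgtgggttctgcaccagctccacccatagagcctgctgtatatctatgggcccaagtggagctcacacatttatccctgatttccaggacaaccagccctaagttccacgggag
Il1rn, chr2:24345041-24345340, plus strand: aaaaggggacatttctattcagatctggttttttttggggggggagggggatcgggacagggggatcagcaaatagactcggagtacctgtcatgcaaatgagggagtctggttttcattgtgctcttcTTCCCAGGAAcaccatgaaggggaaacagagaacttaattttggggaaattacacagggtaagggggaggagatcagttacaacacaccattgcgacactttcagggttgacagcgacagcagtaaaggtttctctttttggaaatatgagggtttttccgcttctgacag
Chil3, chr3:106167515-106167814, minus strand: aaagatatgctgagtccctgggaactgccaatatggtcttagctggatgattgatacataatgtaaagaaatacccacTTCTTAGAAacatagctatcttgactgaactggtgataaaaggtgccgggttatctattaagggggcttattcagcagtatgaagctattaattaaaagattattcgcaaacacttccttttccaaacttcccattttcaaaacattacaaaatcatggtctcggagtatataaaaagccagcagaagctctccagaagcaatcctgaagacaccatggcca
The Retnla promoter held TTCACAAGAA at -145 from the start site and TTGCTAAA at -134, a single base apart. Over 32851 promoters of the same length, 6.95% held TTCNNNNGAA, 8.3% held TTCNNNGAA and 10.8% held TTGCNNAA. Ear2 held TTGCACAA at -90 and neither STAT spacing. The Il1rn start site shown held TTCCCAGGAA at -121, another Il1rn start site with an overlapping window held the same letters at -201, and the remaining one held none of the 3 motifs. Chil3 held TTCTTAGAA, the shorter spacing, at -172. Neither Matk promoter held any of the 3 motifs. The Ch25h promoter, not printed here, held TTAAGCAA, a C/EBP match on the opposite strand, at -112 and neither STAT spacing. A match shows only that these letters are present in the window.

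Retnla encodes the secreted resistin-like protein FIZZ1 (RELMα), a marker of alternatively activated macrophages in mice. It lies on chromosome 16, 48842551 to 48844461 (GRCm38, plus strand), with 4 exons. The CD301b libraries held 10.6, 7.04 and 5.87 CPM, the SIRPa libraries 0.710, 1.54 and 0.943 CPM, and all 3 XCR1 libraries had 0 counts. The lowest CD301b library was therefore well above the highest SIRPa library, and both populations stood apart from XCR1. The mean was 7.85 ± 2.48 CPM in CD301b and 1.06 ± 0.427 CPM in SIRPa cells (SD, n = 3 each), a log2 fold change of 2.88 ± 0.72 (SE, edgeR adjusted p = 0.0253). That call was lost without CD301b replicate 1 (log2 fold change 2.59, adjusted p = 0.210) or replicate 3 (2.95, 0.0954), and without SIRPa replicate 1 (2.65, 0.143), replicate 2 (3.23, 0.0580) or replicate 3 (2.79, 0.117). Against a floor of 3 counts over the XCR1 group, Retnla was at least 162-fold higher in CD301b (edgeR adjusted p = 2.38e-06) and at least 21.9-fold higher in SIRPa cells (adjusted p = 0.000119).

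Retnla was the single member of its family with a tested level. Retn and Retnlb had 0 counts in all libraries, and Retnlg, a gene of neutrophils, had 0 counts in CD301b, 24 in SIRPa and 19 in the XCR1 libraries.

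Ear2 belongs to the eosinophil-associated ribonucleases, a rodent family of secreted RNA-degrading proteins. The gene lies on chromosome 14, 44102654 to 44103534, plus strand. Ear2 stood at 90.0, 85.3 and 77.0 CPM in the CD301b libraries, 19.97, 17.4 and 28.1 CPM in the SIRPa libraries, and 1.65, 0.333 and 3.04 CPM in the XCR1 libraries. The 3 populations formed separate steps with no overlap. Means were 84.1 ± 6.58 CPM in CD301b, 21.8 ± 5.58 CPM in SIRPa and 1.67 ± 1.35 CPM in XCR1 cells (SD, n = 3 each). The log2 fold change was 5.65 ± 0.55 in CD301b against XCR1 (edgeR adjusted p = 7.77e-05) and 3.70 ± 0.52 in SIRPa against XCR1 (adjusted p = 0.00081).

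Between CD301b and SIRPa cells, Ear2 had a log2 fold change of 1.95 ± 0.44 (edgeR adjusted p = 0.0484), just past the threshold of 0.05. The call was lost with RLE size factors (adjusted p = 0.0507), with upper-quartile scaling (0.0549), without any 1 of the 6 CD301b and SIRPa libraries (0.116 to 0.264) and without XCR1 replicate 1 (0.105), while the log2 fold change lay between 1.80 and 2.16 in all of these. In a fit of the 6 libraries alone the adjusted p was 3.10e-06 and without XCR1 replicate 2 it was 5.31e-06.

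Part of the Ear2 reads cannot be placed with certainty, since 278 of the 670 words of 50 bases in its transcripts (41.5%) also occur in other genes, most of them in Ear10. Ear10 itself had 37 counts in CD301b and 0 in SIRPa and XCR1 libraries, and Ear14 had 8, 0 and 0. Ear1 had 4 counts in CD301b, 1 in SIRPa and 0 in the XCR1 libraries. Ear6 went the other way, with 0 counts in CD301b against 10 in SIRPa and 23 in the XCR1 libraries. The more distant ribonuclease Rnase4, which is made by many tissues, had 399 counts in CD301b, 773 in SIRPa and 0 in the XCR1 libraries. Rnase6 was lower than in XCR1 in both, at 92.1 CPM in CD301b and 86.6 CPM in SIRPa against 130 CPM in XCR1 cells.

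Ear2 and other members are also made by eosinophils, whose markers were low but present. The 5 eosinophil markers summed to 0.797 to 2.39 CPM in CD301b, 8.29 to 31.0 CPM in SIRPa and 0 to 13.5 CPM in XCR1 libraries, and the lowest sum, 0, was in XCR1 replicate 2. The granule peroxidase Epx had 0 counts in every CD301b and SIRPa library and 55 counts in XCR1 replicate 3, the XCR1 library with the most Ear2. Means in SIRPa cells were 7.40 CPM for Ccr3, 5.65 CPM for Siglecf and 3.13 CPM for Prg2. The part of eosinophil RNA in the Ear2 values was not tested.

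Il1rn encodes the interleukin-1 receptor antagonist, a secreted protein that blocks IL-1 signalling. Its locus is chromosome 2, 24336853 to 24351494, plus strand. Its level was 80.8, 73.4 and 62.2 CPM in the CD301b libraries, 122, 97.3 and 73.0 CPM in the SIRPa libraries, and 0, 3.23 and 1.83 CPM in the XCR1 libraries. The CD301b and SIRPa ranges overlapped, and both stood far above XCR1. The log2 fold change was 5.40 ± 0.78 in CD301b against XCR1 (edgeR adjusted p = 0.00291) and 5.83 ± 0.79 in SIRPa against XCR1 (adjusted p = 0.00193). Between CD301b and SIRPa it was -0.43 ± 0.60 (adjusted p = 0.878), with a 95% interval of -1.87 to 1.004 that leaves room for a difference either way.

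Most interleukin-1 family genes were also higher than in XCR1. Against XCR1, 6 of the 8 family genes, Il1rn among them, were higher in CD301b (13.5% of all genes) and the same number in SIRPa (13.9%), and none passed as lower. The 2 that did not pass were Il1rap, a receptor subunit (15.5, 13.5 and 9.78 CPM in CD301b, SIRPa and XCR1), and the cytokine Il18 (7.87, 12.0 and 12.3 CPM). The cytokine Il1b averaged 88.6 CPM in CD301b, 69.0 CPM in SIRPa and 9.86 CPM in XCR1 cells, and Il1a averaged 10.9, 16.5 and 0.612 CPM. Higher in both populations than in XCR1 were also Il1r1, the signalling receptor (34.3, 15.04 and 0.465 CPM), Il1r2, the decoy receptor (14.0, 11.8 and 1.31 CPM), and Il18bp, which neutralises IL-18 (34.3, 66.8 and 9.41 CPM). Of the 8, Il18bp alone passed between CD301b and SIRPa, at a log2 fold change of -0.96 ± 0.21 (edgeR adjusted p = 0.00855). Over all genes, 2.20% were higher and 2.08% lower in that comparison.

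Chil3 encodes Ym1, a secreted chitinase-like lectin made by alternatively activated macrophages and also by neutrophils of mice. The locus is chromosome 3, 106147554 to 106167564, minus strand. The CD301b libraries held 0.916, 2.47 and 2.30 CPM, the SIRPa libraries 5.02, 6.33 and 10.4 CPM, and the XCR1 libraries 0, 0.808 and 2.85 CPM. Every SIRPa library was above every other library. The log2 fold change nevertheless missed the threshold, at -1.93 ± 0.94 in CD301b against SIRPa (edgeR adjusted p = 0.370, 95% interval -3.92 to 0.05) and at 2.57 ± 0.97 in SIRPa against XCR1 (adjusted p = 0.0644). In CD301b against XCR1 it was 0.63 ± 0.93 (adjusted p = 0.723).

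Chil3 passed in SIRPa against XCR1 in 5 of 16 alternatives: with no filter on low counts (log2 fold change 2.55, edgeR adjusted p = 0.00459), DESeq2 (2.57, 0.0175), limma-voom (4.12, 0.0126), a replicate block (3.23, 0.0107), and without XCR1 replicate 3 (4.14, 0.00594). In a fit of the 6 libraries alone it passed in CD301b against SIRPa (adjusted p = 0.0387). Neutrophil markers followed Chil3 in part. The 10 markers summed to 48.3 to 61.8 CPM in CD301b and 52.4 to 107 CPM in SIRPa libraries, with 77.7, 52.4 and 107 CPM in SIRPa replicates 1, 2 and 3, and to 0.499, 1.38 and 43.0 CPM in XCR1 replicates 1, 2 and 3. SIRPa replicate 2, second in Chil3, lay within the CD301b range of the sum. Most of the CD301b sum came from Csf3r and Cxcr2, and Cxcr2 averaged 22.6 CPM in CD301b against 1.31 CPM in SIRPa cells, an order opposite to Chil3. Ly6g, Elane and Camp had 0 counts in CD301b libraries, Elane also in SIRPa and Ly6g also in XCR1 libraries. The granule protein gene Ngp, picked after its values were seen, was highest within SIRPa and within XCR1 in the same libraries as Chil3, at 21.1 CPM in SIRPa replicate 3 and 10.4 CPM in XCR1 replicate 3, although XCR1 replicate 3 was below every SIRPa library in Chil3. The part of neutrophil RNA in the Chil3 values was not tested.

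Chil3 shares 438 of its 1629 words of 50 bases (26.9%) with other genes, most with Chil4, which had 0 counts in all libraries. Its relative Chil5 ran the opposite way between the first 2 populations, with 11.4 CPM in CD301b, 2.67 CPM in SIRPa and 1.47 CPM in XCR1 cells. Chil5 was higher in CD301b than in SIRPa (log2 fold change 2.09 ± 0.53, edgeR adjusted p = 0.0237) and than in XCR1 (2.95 ± 0.55, adjusted p = 0.000355). Chil1 had 0 counts in CD301b, 25 in SIRPa and 1 in the XCR1 libraries, and Chil6, Chia1 and Chit1 had 0 in every library.

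**Figure D2:**
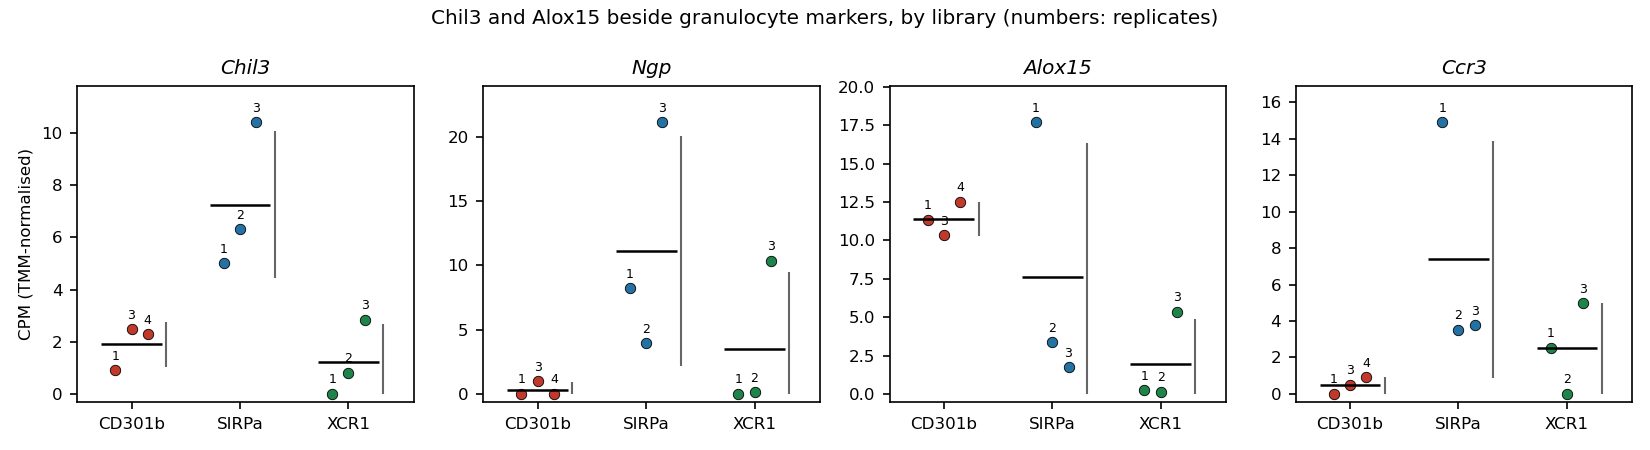
TMM-normalised CPM (y axes) of Chil3, the neutrophil gene Ngp, Alox15 and the eosinophil receptor gene Ccr3 in each CD301b, SIRPa and XCR1 library (x axis), with replicate numbers over the points, means as horizontal lines and ± 1 SD, cut at 0, as vertical lines. SIRPa replicate 3 and XCR1 replicate 3 were the highest of their groups for Chil3 and Ngp, and SIRPa replicate 1 and XCR1 replicate 3 for Alox15 and Ccr3.

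Among the enzymes, Tgm2 encodes transglutaminase 2, which crosslinks proteins and is a marker of alternative activation shared by mouse and human macrophages. Its position is chromosome 2, 158116402 to 158146436, minus strand. The CD301b libraries held 16.2, 20.1 and 23.4 CPM, the SIRPa libraries 48.7, 33.6 and 33.0 CPM, and the XCR1 libraries 3.09, 2.14 and 2.94 CPM. The 3 ranges were separate, with SIRPa at the top, so the order of Tgm2 was not that of Retnla or Ear2. The log2 fold change was -0.95 ± 0.24 in CD301b against SIRPa (edgeR adjusted p = 0.0245), 2.87 ± 0.27 in CD301b against XCR1 (4.46e-08) and 3.82 ± 0.27 in SIRPa against XCR1 (7.91e-10).

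The CD301b against SIRPa call on Tgm2 was lost without CD301b replicate 1 (log2 fold change -0.83, edgeR adjusted p = 0.125), without CD301b replicate 3 (-0.96, 0.0815) and without SIRPa replicate 1 (-0.75, 0.250). Macrophage markers, as a sum, had the same order as Tgm2: the 14 genes summed to 1827 to 2080 CPM in CD301b, 2813 to 3297 CPM in SIRPa and 193 to 208 CPM in XCR1 libraries, and only Marco in XCR1 had 0 counts. Between CD301b and SIRPa 1 of the 14 passed as higher (2.20% of all genes), 2 as lower (2.08%) and 11 did not pass. Timd4 (60.5 and 19.8 CPM in CD301b and SIRPa), Cd163 (13.2 and 6.97 CPM) and Marco (3.37 and 0.614 CPM) ran opposite to the sum. Their part in the values of Tgm2 or of any other member was not tested. Of the 4608 exonic bases of Tgm2, 370 lie opposite exons of Rprd1b and 633 opposite Gm20412, and the sources used here do not give the strand setting of the counting. Tgm1, the transglutaminase of the epidermis, averaged 9.90 CPM in SIRPa and 0.810 CPM in XCR1 cells, a log2 fold change of 3.60 ± 0.77 (adjusted p = 0.00171). F13a1, the crosslinking subunit of a clotting factor, averaged 11.8 CPM in CD301b and 3.22 CPM in XCR1 cells (log2 fold change 1.87 ± 0.57, adjusted p = 0.0224).

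Arg1 encodes arginase 1, which turns arginine into ornithine and urea and is the classic enzyme of alternative activation in mouse macrophages. The gene spans chromosome 10, 24915221 to 24927484, minus strand. The CD301b libraries held 0.916, 2.98 and 1.13 CPM, from 23, 71 and 23 counts. The SIRPa libraries held 0.521, 5.27 and 3.30 CPM, from 11, 120 and 70 counts. All 3 XCR1 libraries had 0 counts. The SIRPa libraries thus spread widely and enclosed the CD301b values, with means of 1.67 ± 1.13 CPM in CD301b and 3.03 ± 2.39 CPM in SIRPa cells (SD, n = 3 each). Between them the log2 fold change was -0.86 ± 1.07 (edgeR adjusted p = 0.854, 95% interval -3.11 to 1.40). Against the floor of the XCR1 group, Arg1 was at least 34.5-fold higher in CD301b (adjusted p = 0.00169) and at least 62.5-fold higher in SIRPa cells (adjusted p = 0.000711).

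Of the 8 tested genes of arginine and nitric oxide metabolism, none passed between CD301b and SIRPa, where 2.20% of all genes were higher and 2.08% lower. The arginine transporter Slc7a2, itself induced by IL-4, averaged 33.1 CPM in CD301b, 33.1 CPM in SIRPa and 1.73 CPM in XCR1 cells, and was higher than in XCR1 in both (log2 fold change 4.25 ± 0.25 each). Slc7a1, another arginine transporter, was lower in both, at 61.1 CPM in CD301b and 51.3 CPM in SIRPa against 82.6 CPM in XCR1 cells. In CD301b that call was just past the threshold (edgeR adjusted p = 0.0498), and CD301b and XCR1 libraries overlapped. Odc1, which starts polyamine synthesis from ornithine, averaged 53.5 CPM in CD301b and 77.9 CPM in XCR1 cells (log2 fold change -0.54 ± 0.15, edgeR adjusted p = 0.0111). Asl, which makes arginine, averaged 28.2 CPM in CD301b and 42.2 CPM in XCR1 cells (-0.58 ± 0.18, adjusted p = 0.0240). Nos2, the inducible nitric oxide synthase of classical activation, had 6 counts in CD301b, 60 in SIRPa and 11 in the XCR1 libraries and was not tested.

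Alox15 encodes 12/15-lipoxygenase, which oxidises unsaturated fatty acids and is abundant in resident peritoneal macrophages and eosinophils. It lies on chromosome 11, 70344152 to 70352031, minus strand. The CD301b libraries were close together, at 11.4, 10.4 and 12.5 CPM. The SIRPa libraries held 17.7, 3.38 and 1.74 CPM and the XCR1 libraries 0.249, 0.143 and 5.35 CPM. In each of these 2 populations a single library stood far above the other two. The mean was 11.4 ± 1.09 CPM in CD301b, 7.61 ± 8.78 CPM in SIRPa and 1.92 ± 2.98 CPM in XCR1 cells (SD, n = 3 each).

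Alox15 passed in no comparison: the log2 fold change was 0.58 ± 1.32 in CD301b against SIRPa (edgeR adjusted p = 0.942), 2.57 ± 1.42 in CD301b against XCR1 (0.281) and 1.99 ± 1.40 in SIRPa against XCR1 (0.404). Without XCR1 replicate 3 it passed against XCR1, at 5.83 in CD301b (adjusted p = 0.00045) and 5.24 in SIRPa (0.000933), and with limma-voom on all libraries it passed in CD301b against XCR1, at 4.18 (0.0112). Without SIRPa replicate 1 it was 2.15 in CD301b against SIRPa (0.697) and 0.40 in SIRPa against XCR1 (0.909). Those single libraries also had the highest sums of eosinophil markers in their groups, 31.0 CPM in SIRPa replicate 1 against 11.03 and 8.29 CPM in the other two, and 13.5 CPM in XCR1 replicate 3 against 3.04 and 0 CPM. Ccr3, picked after its values were seen, held 14.9 CPM in SIRPa replicate 1 and 4.97 CPM in XCR1 replicate 3. Not every marker did the same: Prg2 held 3.41 CPM in SIRPa replicate 1 and 4.57 CPM in SIRPa replicate 2, and Epx had 0 counts in both. In the CD301b libraries, where Alox15 was above 10 CPM throughout, Ccr3 held 0, 0.503 and 0.930 CPM. The part of eosinophil RNA in the Alox15 values was not tested.

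Of the other lipoxygenase genes, Alox5, which starts leukotriene synthesis, averaged 18.8 CPM in CD301b, 13.2 CPM in SIRPa and 1.26 CPM in XCR1 cells. It was higher than in XCR1 in CD301b (log2 fold change 3.89 ± 0.90, edgeR adjusted p = 0.0149) and in SIRPa (3.37 ± 0.88, adjusted p = 0.0244). Its partner protein gene Alox5ap had its highest mean in XCR1 cells, with 112 CPM in CD301b, 67.9 CPM in SIRPa and 147 CPM in XCR1. In CD301b against XCR1 it narrowly missed the threshold (log2 fold change -0.39 ± 0.14, edgeR adjusted p = 0.0504). Alox5ap was higher in CD301b than in SIRPa (0.72 ± 0.14, adjusted p = 0.00357) and lower in SIRPa than in XCR1 (-1.11 ± 0.14, adjusted p = 3.88e-06).

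Ch25h encodes cholesterol 25-hydroxylase, which makes the oxysterol that is turned into the ligand of GPR183. Its locus is chromosome 19, 34473778 to 34475164, minus strand. Its 7 counts all came from CD301b replicate 3, which is 0.293 CPM, and the other 8 libraries had 0. Of its 1387 exonic bases, 159 lie opposite exons of Gm26902. Some later steps of the pathway were measured at higher levels: Cyp7b1, the next hydroxylase, averaged 48.8 CPM in CD301b, 12.4 CPM in SIRPa and 0.222 CPM in XCR1 cells. Gpr183, the receptor, averaged 165, 129 and 11.6 CPM. Both were higher in CD301b and in SIRPa than in XCR1, and neither passed between CD301b and SIRPa (edgeR adjusted p = 0.0787 for Cyp7b1 and 0.114 for Gpr183). Hsd3b7, another gene of the pathway, was low throughout, at 0.752, 0.860 and 0.531 CPM in CD301b, SIRPa and XCR1 cells. Cyp27a1, which hydroxylates another carbon of cholesterol, was lower than in XCR1 in both, at 16.5 CPM in CD301b and 15.3 CPM in SIRPa against 38.6 CPM in XCR1 cells.

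Matk encodes a kinase related to Csk that phosphorylates and restrains Src-family kinases. It lies on chromosome 10, 81252935 to 81263365, plus strand. The CD301b libraries held 20.1, 17.9 and 15.1 CPM, the SIRPa libraries 10.1, 14.4 and 14.8 CPM, and the XCR1 libraries 6.29, 4.42 and 8.01 CPM. The ranges did not overlap, although CD301b replicate 4 and SIRPa replicate 3 nearly met. The log2 fold change was 1.502 ± 0.30 in CD301b against XCR1 (edgeR adjusted p = 0.00086) and 1.07 ± 0.30 in SIRPa against XCR1 (0.0119). The SIRPa against XCR1 call was lost without SIRPa replicate 2, SIRPa replicate 3 or XCR1 replicate 2 (0.0538 to 0.0625). Between CD301b and SIRPa it was 0.43 ± 0.30 (0.603, 95% interval -0.18 to 1.05).

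Csk itself, measured at 166 CPM in CD301b, 136 CPM in SIRPa and 152 CPM in XCR1 cells, passed in none of the comparisons. Among the Src-family kinases that these proteins act on, Fgr was higher in CD301b than in SIRPa (202 against 137 CPM, log2 fold change 0.56 ± 0.11, edgeR adjusted p = 0.00555) and Src was lower (35.5 against 57.1 CPM, -0.69 ± 0.16, adjusted p = 0.0171). Lyn was higher than in XCR1 in both populations, and averaged 360 CPM in CD301b, 337 CPM in SIRPa and 211 CPM in XCR1 cells.

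Myc, a transcription factor of growth and biosynthesis that IL-4 induces in human macrophages, was the member with the most even level. It lies on chromosome 15, 61985391 to 61990374, plus strand. The CD301b libraries held 20.3, 19.2 and 34.5 CPM, the SIRPa libraries 31.6, 28.4 and 25.4 CPM, and the XCR1 libraries 34.7, 26.0 and 34.4 CPM. All ranges overlapped. The log2 fold change was -0.21 ± 0.23 in CD301b against SIRPa (edgeR adjusted p = 0.819, 95% interval -0.68 to 0.27), -0.36 ± 0.23 in CD301b against XCR1 (0.299, -0.83 to 0.11) and -0.16 ± 0.23 in SIRPa against XCR1 (0.711, -0.63 to 0.32). Myc passed as lower in CD301b than in XCR1 without CD301b replicate 4, at -0.70 (0.0280), and with a replicate block, at -0.74 (0.0264).

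The Myc relative Mycl had a different pattern, with 32.4 CPM in CD301b, 34.9 CPM in SIRPa and 226 CPM in XCR1 cells. Mycl was lower than in XCR1, with a log2 fold change of -2.80 ± 0.17 in CD301b (edgeR adjusted p = 4.28e-11) and -2.69 ± 0.17 in SIRPa (8.21e-11). Mxd1, which opposes Myc at shared sites, averaged 135 CPM in CD301b, 239 CPM in SIRPa and 241 CPM in XCR1 cells. It was lower in CD301b than in SIRPa (-0.83 ± 0.12, adjusted p = 0.000271) and than in XCR1 (-0.84 ± 0.12, 2.59e-05). Of the 10 tested Myc network genes, 1 was lower and none higher in CD301b than in SIRPa, against 2.08% and 2.20% of all genes.

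**Figure D3:**
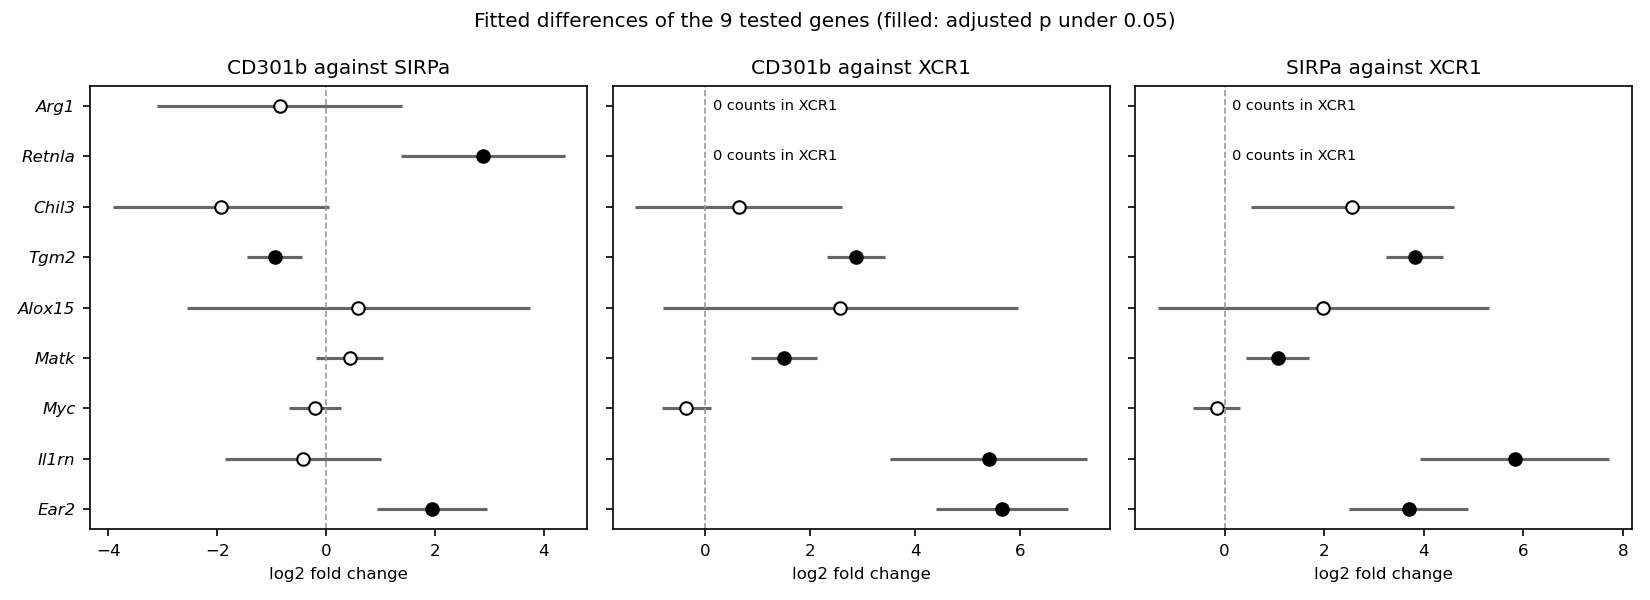
Fitted log2 fold changes (x axes) of the 9 tested genes (rows) in CD301b against SIRPa, CD301b against XCR1 and SIRPa against XCR1, with 95% intervals as lines and filled points for adjusted p under 0.05. Retnla and Ear2 lie right of 0 and Tgm2 left of it in CD301b against SIRPa; Arg1 and Retnla had 0 counts in XCR1 and have no point there.

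Between genes, levels were compared as CPM per kilobase of exon. On that scale Ear2 was the highest member in CD301b cells, at 117 ± 9.16, and in SIRPa cells, at 30.3 ± 7.76 (SD, n = 3 each). Next in CD301b cells came Retnla at 13.1 ± 4.14 and Il1rn at 13.04 ± 1.69, which did not differ beyond their spread. Next in SIRPa cells came Il1rn at 17.6 ± 4.39, and then Myc at 10.5 ± 1.15 and Tgm2 at 8.34 ± 1.92, whose spreads overlapped. In XCR1 cells Myc was first, at 11.7 ± 1.82 CPM per kilobase. Ear2 was next by mean, at 2.33 ± 1.88, a spread that overlapped that of Matk at 1.36 ± 0.391. Arg1, at 0.751 ± 0.509 in CD301b and 1.36 ± 1.07 in SIRPa cells, had the lowest mean of the tested members in both populations. Its spread overlapped that of Chil3 in CD301b (1.16 ± 0.523) and of Retnla in SIRPa cells (1.78 ± 0.713). Retnla moved most in rank, at rank 2 of the members in CD301b and rank 8 in SIRPa cells.

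Across the 9 libraries, on log2 CPM, the members that followed each other most closely were Matk and Ear2 (Pearson r = 0.971), Retnla and Ear2 (0.945) and Retnla and Matk (0.929). Myc had negative coefficients with all 8 other tested members, the lowest with Retnla (-0.57). Chil3 was far less like Retnla, at 0.365. These coefficients describe 9 libraries of 3 populations, so they mostly repeat the order of the population means. By the same measure the 3 genes most like Retnla were Camkk2 (r = 0.990), Rnd3 and Tnip3, those most like Ear2 were Aqp3 (0.989), G6pdx and Gfra2, and those most like Matk were Man2a2 (0.991), Casp8 and Eng. Aqp3, a water and glycerol channel, averaged 51.0 CPM in CD301b, 15.5 CPM in SIRPa and 0.244 CPM in XCR1 cells. Il1rn was most like Plaur (0.993), Cst7 and Lhfpl2, and Tgm2 most like Prkar1b (0.994), Syk and Znf41-ps. Cst7, an inhibitor of cathepsins, averaged 21.9 CPM in CD301b, 42.9 CPM in SIRPa and 0.878 CPM in XCR1 cells. Closest to Arg1 were Stk11ip (0.967), Bex6 and Ssh3, to Chil3 Tmem201 (0.963), Ikbke and Zfp787, to Alox15 Pon2 (0.962), Kat14 and Capn5, and to Myc Smg1 (0.976), Epm2aip1 and Atxn2.

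A list of 36 other genes of the IL-4 and IL-13 pathway, all tested, gives the setting of the members. In CD301b against SIRPa, 10 were higher (2.20% of all genes), 3 lower (2.08%) and 23 did not pass, and the median log2 fold change was 0.72 against 0.01 over all genes. In CD301b against XCR1, 26 were higher (13.5% of all genes), 3 lower (9.12%) and 7 did not pass, with a median of 2.11 against 0.05. In SIRPa against XCR1, 26 were higher (13.9% of all genes), 4 lower (10.7%) and 6 did not pass, with a median of 1.46 against 0.06. Genes at 0 counts in XCR1 did not move these medians when set at their lower bounds. The list holds Mgl2, the gene of the protein that names the CD301b cells, and Batf3, Irf4 and Clec10a, which mark the subsets. Its counts are therefore partly set by the sort. The list was also chosen with earlier results of these data known, so its counts and medians are not independent of these data.

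Beyond Mgl2 and its neighbour Clec10a, the lectin genes, CD301b cells had more of Flt1, a VEGF receptor (log2 fold change 2.07 ± 0.19, edgeR adjusted p = 1.47e-06), and of Ccl17, a chemokine for CCR4-bearing T cells (1.79 ± 0.18). Also higher were Cdh1, which encodes E-cadherin (1.68 ± 0.15), and the transcription factors Egr2 (1.33 ± 0.22), Klf4 (1.13 ± 0.17) and Irf4 (0.71 ± 0.15). Tiam1, an activator of Rac, was higher as well (0.95 ± 0.11). The receptor chain Il13ra1 was higher in CD301b (1.10 ± 0.13, adjusted p = 1.90e-05), while Il4ra was lower (-0.60 ± 0.17, adjusted p = 0.0464) and Stat6 did not pass (0.15 ± 0.11, adjusted p = 0.620). Stat6 averaged 164 CPM in CD301b, 148 CPM in SIRPa and 147 CPM in XCR1 cells.

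Lower in CD301b than in SIRPa was Atp6v0d2, a proton pump subunit with a role in macrophage fusion, at 7.12 against 23.9 CPM (log2 fold change -1.74 ± 0.32, edgeR adjusted p = 0.00258). The IgE receptor gene Fcer2a was also lower, with 2 counts in CD301b and 223 in SIRPa libraries. The mannose receptor Mrc1, a common marker of alternative activation, averaged 264 CPM in CD301b, 94.8 CPM in SIRPa and 4.79 CPM in XCR1 cells and did not pass between the first 2 (adjusted p = 0.0983). Mmp12, the macrophage elastase, averaged 107, 15.4 and 0.443 CPM and did not pass between them either (adjusted p = 0.0579).

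Against XCR1, the pathway genes that rose in both populations included Cish, Pdcd1lg2, Itgb3, Cd274, Ptgs1, Jak1, Jak3 and Il2rg, and Tfec, a transcription factor that had 950 counts in CD301b, 1098 in SIRPa and 0 in the XCR1 libraries. Pdcd1lg2, which encodes the PD-1 ligand PD-L2, averaged 37.8 CPM in CD301b, 21.7 CPM in SIRPa and 9.58 CPM in XCR1 cells. Ccl22, the other CCR4 ligand, was high everywhere, at 903 CPM in CD301b, 838 CPM in SIRPa and 586 CPM in XCR1 cells. Lower than in XCR1 in both were Batf3, Tyk2 and Vwf, and in SIRPa also Tiam1, at 101 CPM against 209 CPM in XCR1 cells.

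**Figure D4:**
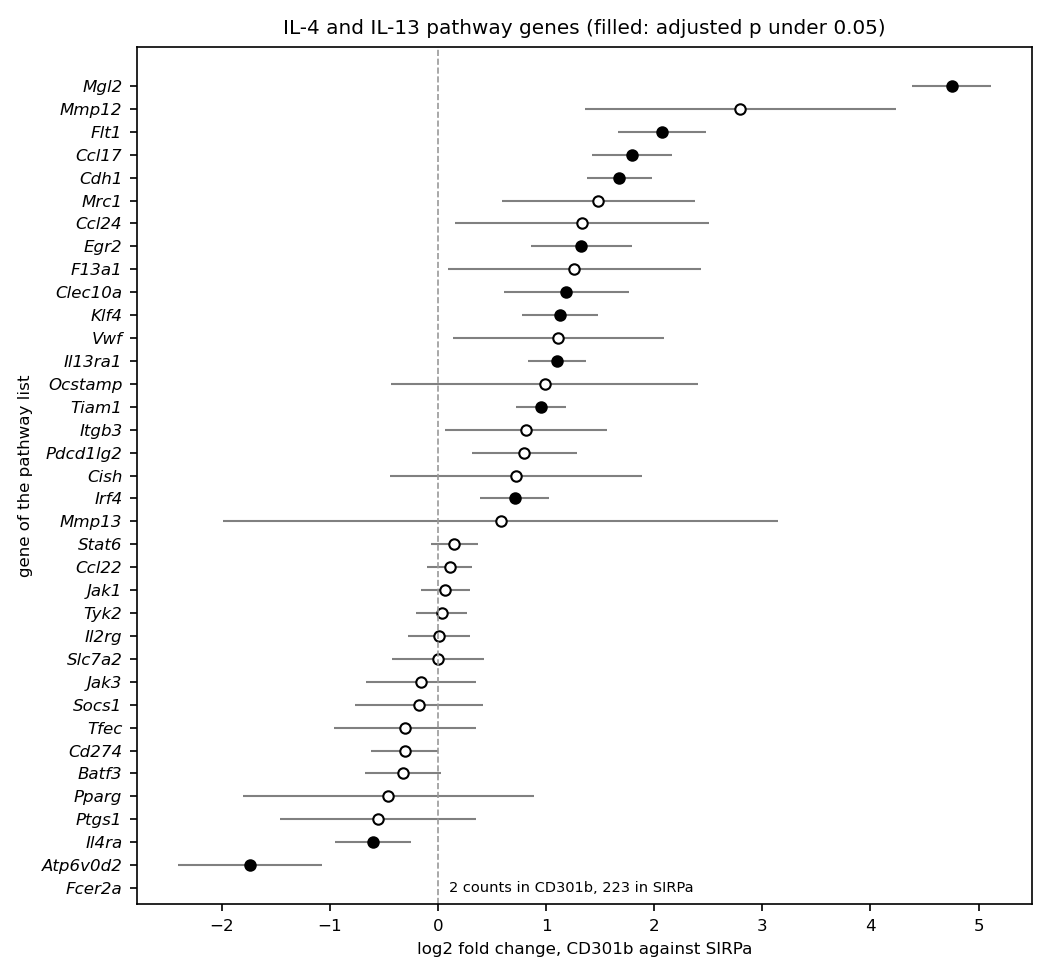
Fitted log2 fold changes in CD301b against SIRPa (x axis) of the 36 pathway list genes (rows, ordered by value), with 95% intervals as lines and filled points for adjusted p under 0.05; Fcer2a is given by its counts. Mgl2 lies farthest right at 4.75 and Atp6v0d2 farthest left of the plotted points at -1.74.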

How the data were processed

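RNA-seq counts were analysed for 9 libraries. The tools were HISAT2, featureCounts (Subread), Trimmomatic, FastQC, SAMtools and edgeR, on build mm10, per the submitters' processing notes; the sources used here do not give versions, annotation or strand setting. Libraries came from a low-input stranded total RNA kit, per the labels' protocols. The deposited counts are raw whole numbers per gene symbol. The authors' deposited log2 CPM table served only as a check: it was offset from recomputed log2 CPM by a median of 0.116 to 0.122 per library. The 24 symbols turned into dates (0.125 to 0.187% of counts) were left out.

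Genes were kept with filterByExpr (minimum count 10), scaled by TMM and tested in 1 fit over 9 libraries (edgeR 4.0.16 quasi-likelihood, robust, two-sided, R 4.3.3). Adjustment was by Benjamini-Hochberg over the 15417 genes of each comparison, with a threshold of 0.05, and errors of fold changes are SE. The floor is 3 counts per library or, for an "at least" fold, over a group. Floors cover counting error only. Alternatives were RLE and upper-quartile scaling, no filter, DESeq2 1.42.0, limma-voom (limma 3.58.1), 6 libraries only, a replicate block, and leaving out each library.

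The members and lists were chosen with earlier results of these data known. Named are all members, list genes that passed with a mean of at least 5 CPM over 6 libraries (in part), family members at the floor, and per member the 3 genes with the highest r among those of at least 5 CPM. Positions are GENCODE M21 on GRCm38. No 2 libraries were identical.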

Additional observations from a re-analysis of the deposited data

How the results depend on the processing

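Over 16 alternatives, the 27 member fold changes gave 432 values, of which 396 kept their direction and their side of the threshold, 23 kept the direction but were no longer past it, 11 came past it and 2 changed sign. With the replicate block, which takes the title numbers as pairs, Arg1 in CD301b against SIRPa became 0.26 (edgeR adjusted p = 0.961) and Alox15 became -0.26 (0.981), and the count of members past the threshold there was 1 against 3; the cause was not tested. Retnla (adjusted p = 0.0600) and Ear2 (0.0623) lost their calls there and Il1rn lost its call in CD301b against XCR1 (0.0553), while Chil3 in SIRPa against XCR1 (0.0107) and Myc in CD301b against XCR1 (0.0264) gained one. The numbers are not stated to mark shared animals. Deviations of same-numbered libraries correlated at 0.00305 to 0.0413, and those of differently numbered libraries at -0.0672 to 0.0481. Leaving out 1 library gave 0 to 3 member calls in CD301b against SIRPa (0 without CD301b replicate 1 or 3 or SIRPa replicate 1), 6 to 7 in CD301b against XCR1 and 5 to 8 in SIRPa against XCR1, and 328 to 813 calls over all genes against 660 in CD301b against SIRPa. The pathway list gave 9 to 17, 26 to 29 and 27 to 31 calls. With 3 libraries a population, Arg1, Chil3 and Alox15 in CD301b against SIRPa are limited by the spread between libraries. Ch25h had too few counts to enter the test, and whether this reflects depth or absence of the transcript was not tested.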
